A study of Mus musculus with 24 samples.

Results

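The forkhead box (Fox) transcription factor genes were followed through the formation of mouse optic vesicle (OV) organoids. Members were the rows of the expression table whose gene symbol is Fox, a letter from a to s, a number and at most 1 further letter, on assembled chromosomes. That gave 44 of 49705 gene entries, of which 43, in 18 subfamilies by letter, are described. Of the 43, 38 reached a normalized count of at least 10 in at least 3 of the 24 libraries and were tested, and 20 of these (52.6%) were called in at least 1 of 10 comparisons, beside 15.1% of all 21005 tested genes.

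Fox proteins share the forkhead, a winged-helix DNA-binding domain, and are named by subfamily. FoxA proteins open chromatin for other factors in endoderm and in the ventral midline of the neural tube, FoxC and FoxF proteins act in mesoderm and vessels, and FoxH1 brings Smad proteins to the targets of Nodal. In the forming eye, FoxD1 marks the temporal retina, FoxE3 the lens and FoxN4 the retinal progenitors that give rise to horizontal and amacrine cells. FoxM1 drives entry into mitosis, FoxO proteins act downstream of insulin signalling, and FoxD3 is known from pluripotent cells and the neural crest.

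All libraries came from Rx-GFP K/I EB5 cells, a mouse embryonic stem cell (mESC) line with GFP knocked into the Rax locus, so GFP reads out a gene of the early eye field. Organoids were started from 4500 cells each in supplemented GMEM with 1.5% KOSR per the labels (the study's methods name a growth factor-free chemically defined medium for these first organoids), and day 1 brought Matrigel at 2%. Cells of 24 pooled organoids, dissociated and sorted for live single cells, made up each sample. Day 0 carries the treatment label none and the later samples carry the organoid differentiation label. The 8 groups of 3 replicates were all live cells on days 0, 1, 2 and 3, and the GFP-positive and GFP-negative gates on days 4 and 5. The gates were set to keep as many cells as possible, so the GFP-negative gate held some cells of low GFP and the GFP-positive gate cells of moderate as well as high GFP, and day 3 held a few GFP-expressing cells that were not separated. All groups share 1 line. The study describes its replicates as biological triplicates of organoid cultures, while the labels do not say what separates them, and p-values measure the spread between these samples.

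The total of normalized counts per library ran from 39849111 to 51587535. Replicates had Spearman correlations of 0.979 to 0.993 in the 22 pairs without day 0 replicate 1, and of 0.953 and 0.954 in the 2 pairs with it, so that library stood apart. Summed eye field markers (Pax6, Lhx2, Six3 and Six6) were 36793 to 49231 in the 6 GFP-positive libraries and 7924 to 9815 in the 6 GFP-negative ones. Summed pluripotency markers (7 genes, among them Nanog and Pou5f1) fell from 140507 to 181464 on day 0 to 513 to 687 in day 5 GFP-positive cells, which goes with their labels.

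Promoter sequence is shown for 6 members called in the comparisons described below, chosen after their values were seen, so that the stretch before each start site can be read beside the values. Each line gives the 250 bases before the RefSeq start site in GRCm38.p6, 5′ to 3′ on the gene's strand, with CG dinucleotides in capitals. The measured gene entry begins before that start site in 4 of them, so the last 181 bases shown for Foxd4 lie inside it. The same holds for the last 75 bases of Foxi3, 13 of Foxc1 and 3 of Foxd1.
Foxd3, fell most from day 3 to day 4 GFP-positive, chr4:99656049-99656298, plus strand: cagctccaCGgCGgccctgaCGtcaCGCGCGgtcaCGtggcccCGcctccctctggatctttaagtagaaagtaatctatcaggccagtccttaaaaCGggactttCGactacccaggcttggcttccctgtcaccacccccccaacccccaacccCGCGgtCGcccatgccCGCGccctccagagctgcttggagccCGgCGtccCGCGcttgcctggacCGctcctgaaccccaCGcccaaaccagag
Foxi3, fell beside Foxd3, chr6:70956356-70956605, plus strand: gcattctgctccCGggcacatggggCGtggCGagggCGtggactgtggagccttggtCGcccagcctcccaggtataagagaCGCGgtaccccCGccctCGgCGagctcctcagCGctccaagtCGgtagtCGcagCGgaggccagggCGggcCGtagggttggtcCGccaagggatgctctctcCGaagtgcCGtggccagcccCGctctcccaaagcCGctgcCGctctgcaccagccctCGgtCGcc
Foxd4, highest on day 4, chr19:24901017-24901266, minus strand: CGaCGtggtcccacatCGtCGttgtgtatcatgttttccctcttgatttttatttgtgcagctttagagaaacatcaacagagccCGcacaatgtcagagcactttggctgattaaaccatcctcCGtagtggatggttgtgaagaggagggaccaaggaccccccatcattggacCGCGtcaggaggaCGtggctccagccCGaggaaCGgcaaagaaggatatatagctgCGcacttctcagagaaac
Foxd1, rose in both gates on day 4, chr13:98353995-98354244, plus strand: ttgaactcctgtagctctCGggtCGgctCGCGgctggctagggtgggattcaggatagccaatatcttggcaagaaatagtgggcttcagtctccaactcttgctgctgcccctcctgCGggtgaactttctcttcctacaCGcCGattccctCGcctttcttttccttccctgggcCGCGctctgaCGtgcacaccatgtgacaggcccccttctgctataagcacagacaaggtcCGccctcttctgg
Foxa2, higher in GFP-negative cells on both days, chr2:148046970-148047219, minus strand: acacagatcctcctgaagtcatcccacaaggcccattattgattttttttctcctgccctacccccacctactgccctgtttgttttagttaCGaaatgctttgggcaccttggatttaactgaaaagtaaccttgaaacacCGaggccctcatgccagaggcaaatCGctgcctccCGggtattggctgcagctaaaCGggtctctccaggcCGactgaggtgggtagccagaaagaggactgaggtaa
Foxc1, higher in GFP-negative cells on both days, chr13:31806396-31806645, plus strand: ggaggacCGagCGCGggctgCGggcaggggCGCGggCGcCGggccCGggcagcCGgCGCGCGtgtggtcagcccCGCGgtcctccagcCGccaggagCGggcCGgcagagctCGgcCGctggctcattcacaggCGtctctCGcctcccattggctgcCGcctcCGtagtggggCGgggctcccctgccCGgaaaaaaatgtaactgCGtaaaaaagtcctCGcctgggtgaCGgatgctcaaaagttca

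The 6 stretches differed in their CG dinucleotides, with 29 in Foxc1, 24 in Foxi3, 21 in Foxd3, 12 in Foxd4, 12 in Foxd1 and 6 in Foxa2. RefSeq promoter entries (250 bases before to 50 after the start) were matched for 28 of the 43 members. Some start far from the 5′ end of the measured gene, by 113508 bases in Foxn3, 6032 in Foxp3, 2657 in Foxj3 and 1728 in Foxp1. An observed to expected CG ratio above 0.6 was found in 18 of the 28 (64.3%), against 34.5% of 27025 genes. It was exceeded by 9 of the 13 called members with an entry (69.2%) and by 9 of the 12 tested but uncalled ones (75%). The forkhead core TGTTTA, searched on both strands, was in 3 of the 28 promoters (10.7%, against 12.0% of all), among them the distant entries of Foxp1 and Foxp3. A homeodomain core, TAATTA, which reads the same on both strands, was in 1 of the 28 (3.57%, against 4.90%). None of the 6 stretches printed holds either core, which says only that these letters are not in these windows.

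The structure of the genes was another feature that the choice of members did not use. Of the 10 tested members whose longest coding transcript has a single exon (Foxc1, Foxc2, Foxd1, Foxd2, Foxd3, Foxd4, Foxe1, Foxe3, Foxl2 and Foxq1), 10 were called at least once, against 10 of the 28 with several exons (35.7%). Over all tested genes with a coding transcript, 21.7% of 614 with 1 exon and 16.5% of 15832 with several were called at least once. Of 13 members with a single-exon longest transcript, Foxb2, Foxl1 and Foxs1 were below the filter and are not in these counts. Foxe3 and Foxd2 reached 10 only in day 5 libraries, so for them passing the filter and being called are not independent. The counts were therefore not read as a link between exon structure and calls. In mm10, Foxd4 (ENSMUSG00000051490) is at chr19:24899236-24901197 on the minus strand and Foxh1 (ENSMUSG00000033837) at chr15:76668225-76669948 on the minus strand. Several called members are close neighbours. Foxf1 and Foxc2 lie 28.0 kb apart on chromosome 8, with Foxl1 9.04 kb beyond Foxc2, and Foxd2 and Foxe3 lie 16.3 kb apart on chromosome 4. On chromosome 13, Foxq1, Foxf2 and Foxc1 follow each other with gaps of 64.8 and 175 kb.

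**Figure D1:**
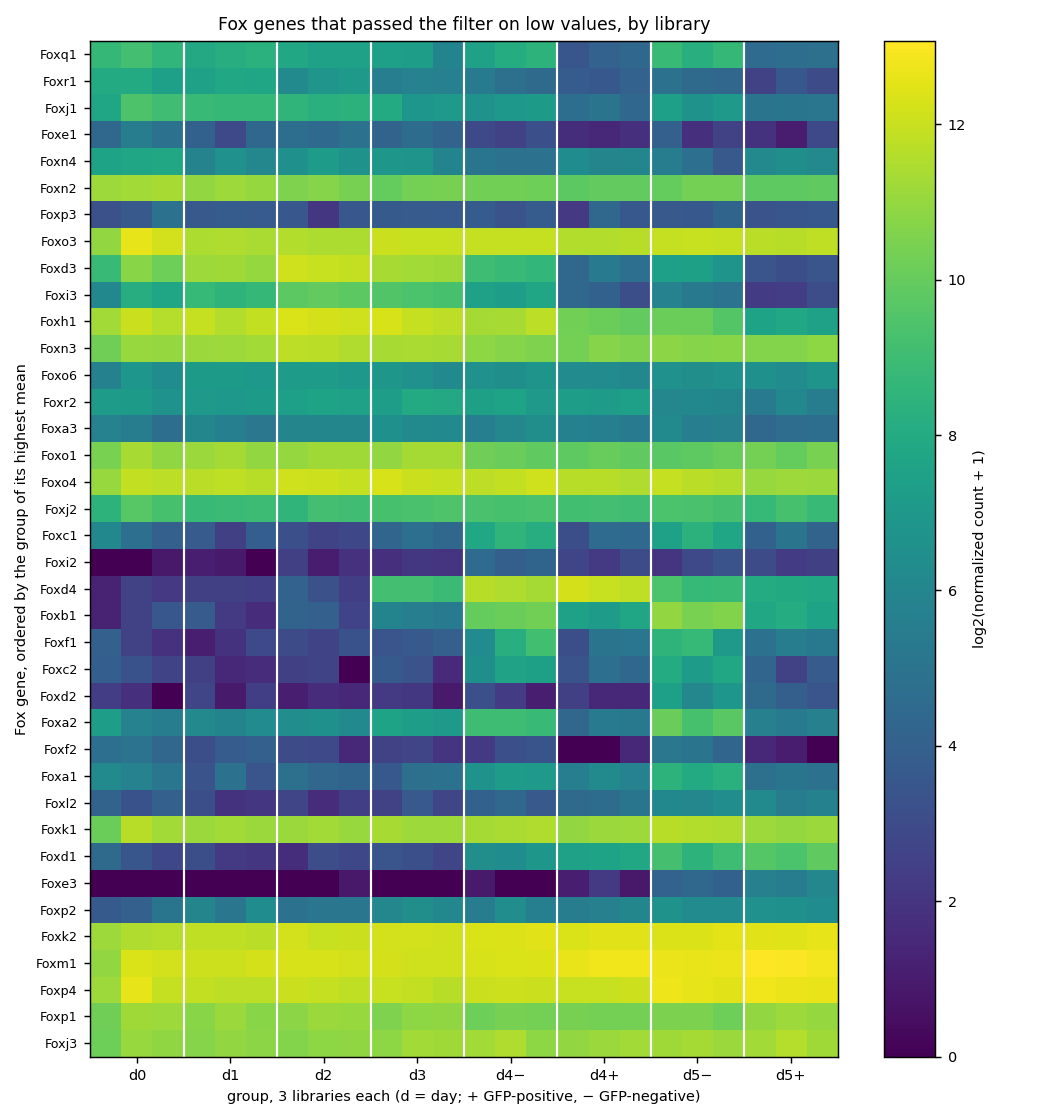
Each row is 1 of the 38 Fox genes that passed the filter, each column 1 of the 24 libraries, and colour is log2(normalized count + 1) on the scale at the right, with genes ordered by the group of their highest mean. The Foxd3 and Foxi3 rows are bright through days 0 to 3 and dark in GFP-positive cells, whereas Foxd1 is brightest on day 5.

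Before any test, the family split into broadly present members and members that came and went. Counting each member by the group of its highest mean, 8 peaked in day 5 GFP-positive cells (Foxd1, Foxe3, Foxj3, Foxk2, Foxm1, Foxp1, Foxp2 and Foxp4), 9 in day 5 GFP-negative cells and 8 on day 0. Day 2 and day 3 had 5 each, day 4 GFP-negative 2, day 4 GFP-positive 1 (Foxd4) and day 1 none of the 38. Levels were compared between genes only after division by the length of the longest coding transcript, which may not be the length the authors' index held.

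Per kb, Foxh1 led the family in the early groups, at 2422 normalized counts per kb on day 0 and 3498 on day 2, where it made up 24.9% and 26.6% of the sum over the 43 members. It still led in day 4 GFP-negative cells (17.7%). In day 4 GFP-positive cells the leading member was Foxd4 (2100 per kb, 21.3%), and Foxh1 had dropped to 8.30%. On day 5, Foxp4 led in GFP-negative cells (14.99%) and Foxm1 in GFP-positive cells (20.9%).

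In the tests, a fold change is a difference of mean log2(normalized count + 1), which understates the change of low genes, given ± its standard error (SE) with 3 libraries a group. A gene was called higher or lower when its Benjamini-Hochberg adjusted p in limma was under 0.001 and its log2 fold change was above 1.5 in size. The share of all 21005 tested genes that met the same rule is given beside each count of Fox genes called. Counts at an unadjusted p under 0.05 have no such share beside them, so they are not read as a result. In bulk samples such as these, fewer cells of a type and less RNA per cell cannot be told apart.

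**Figure D2:**
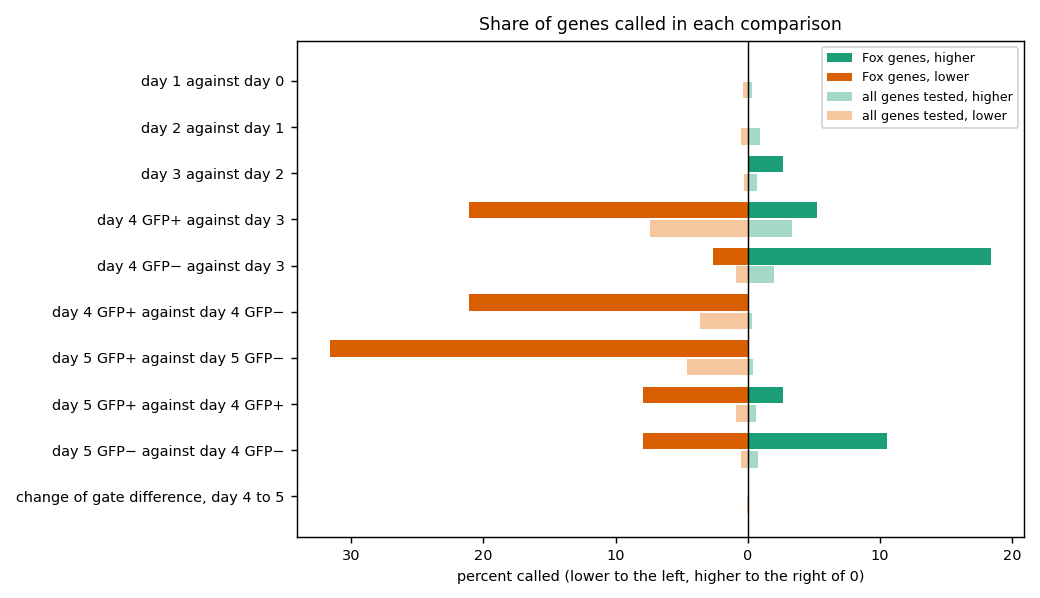
Bars give the percent of the 38 tested Fox genes (dark) and of all 21005 tested genes (pale) called higher (right of 0) or lower (left of 0) in each of the 10 comparisons. The longest Fox bar is that of the lower calls between the day 5 gates (12 of 38), followed by 8 of 38 lower both between the day 4 gates and in day 4 GFP-positive cells against day 3.

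The first question was which Fox genes changed while the aggregates formed, before the gates could be sorted. From day 0 to day 1 limma called none of the 38 members (0.738% of all genes called, 0.343% higher and 0.395% lower). An unadjusted p under 0.05 was found for 14. From day 1 to day 2 limma again called none (1.47%, 0.943% higher and 0.528% lower), with 12 at an unadjusted p under 0.05. Foxd3, the stem cell and neural crest member, was 458, 1725 and 1150 normalized counts in the 3 day 0 libraries and 2252, 2354 and 2039 on day 1. It reached 4416, 4049 and 3716 on day 2 and stood at 2680, 2498 and 2351 on day 3. All day 2 libraries were above all others, but its log2 differences of 1.19 ± 0.32 on day 1 and 0.87 ± 0.32 on day 2 did not meet the rule (limma adjusted p = 0.0195 and 0.0671).

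Foxi3, a member known from the ectoderm that forms placodes and branchial arches, ran alongside it. It was 68.5, 287 and 211 on day 0, 431, 360 and 423 on day 1, 867, 984 and 873 on day 2 and 748, 667 and 621 on day 3. In both genes, replicate 1, the library that stood apart, held the lowest day 0 value. Foxp2 (log2 difference 1.56 ± 0.33, limma adjusted p = 0.0037) and Foxa1 (-1.81 ± 0.39, limma adjusted p = 0.0043) missed the rule from day 0 to day 1. Foxp2 met it without day 0 replicate 3 (lowest limma adjusted p 0.00037) and Foxa1 without day 1 replicate 2 (0.00034). Without day 0 replicate 1 the count of calls was still 0.

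Foxd4, whose product is known from early neural ectoderm, was the single member called from day 2 to day 3 (1 of 38, beside 1% of all genes, 0.714% higher and 0.29% lower). It was 1.40, 5.06 and 3.55 on day 0, 4.52, 4.59 and 4.34 on day 1 and 16.1, 8.56 and 4.39 on day 2. On day 3 it was 581, 575 and 476. It rose by 5.82 ± 0.32 on the log2 scale (limma adjusted p = 2.2e-10), and genes of several lists rose in the same step. Of the forebrain list (Six3, Hesx1, Emx2, Otx2, Fezf1, Fezf2, Fgf8, Lhx2, Pax6, Nr2e1, Vax1 and Dlx2), 6 of 12 were called higher and 0 lower, with a median of 1.77. Six3, an eye field and forebrain factor, rose most of that list, by 5.34 ± 0.25 (limma adjusted p = 3.5e-11). Of 5 primitive streak and mesoderm markers, 3 (Mesp1, T and Mixl1) were higher and 0 lower, with a median of 3.40. Gsc and Cer1 of the Nodal and endoderm lists were higher as well. Other genes fell in this step: the Nodal list had 2 of 11 higher and 2 lower (Lefty1 and Lefty2), with a median of 0.14. Tcf15 of the mesoderm and vessel list was lower too.

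The comparison of day 4 GFP-positive cells with day 3 asked which Fox genes differed between the cells sorted for GFP and all live cells of the day before. Of 38 members, 2 were higher and 8 lower, 26.3% in all, beside 10.7% of all genes (3.33% higher and 7.36% lower). The median log2 fold change over the 38 was -0.37, beside -0.01 over all tested genes. The 2 that rose were Foxd1 and Foxd4, and the 8 that fell were Foxd3, Foxi3, Foxq1, Foxe1, Foxj1, Foxa2, Foxh1 and Foxr1.

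Foxd1 was 9.78, 8.0 and 5.71 on day 3 and 177, 194 and 217 in day 4 GFP-positive cells, a rise of 4.50 ± 0.40 (limma adjusted p = 9.8e-09). Foxd4 went on rising, to 4752, 4035 and 3574, by 2.91 ± 0.32 (limma adjusted p = 2.5e-07). No library of these groups overlapped in either gene. Foxd1 had stood at 22.4, 10.1 and 6.21 on day 0.

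The deepest fall was that of Foxd3, to 20.5, 42.1 and 26.6, or -6.41 ± 0.32 on the log2 scale (limma adjusted p = 1.6e-12). Foxi3 fell to 19.4, 15.6 and 7.97, by -5.55 ± 0.38 (limma adjusted p = 2.0e-10). Foxh1, the Smad partner, went from 5042, 3843 and 3537 to 1249, 1113 and 994, a change of -1.88 ± 0.19 (limma adjusted p = 7.1e-08). The other genes of the Nodal and FoxH1 list were Nodal, Lefty1, Lefty2, Tdgf1, Gsc, Mixl1, Eomes, Smad2, Smad3, Smad4 and Acvr1b. Of these 11, 7 were lower, with a median of -2.56, led by Tdgf1 (-4.54 ± 0.39, limma adjusted p = 7.6e-09), the Nodal co-receptor, and Nodal itself (-3.95 ± 0.29, limma adjusted p = 4.5e-10). Cell type markers fell in the same comparison. Lower were 7 of 7 pluripotency markers (median -4.16), 3 of 5 primitive streak and mesoderm markers and 2 of 4 endoderm markers, and none of these was higher. The part of such cells in the Fox falls was not tested.

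Among the other members that fell, Foxq1, known from epithelia, went from 164, 159 and 58.1 on day 3 to 10.2, 16.5 and 20.6 (-2.84 ± 0.33, limma adjusted p = 5.6e-07). Foxj1, the regulator of motile cilia, went from 256, 116 and 130 to 25.0, 32.1 and 19.8 (-2.60 ± 0.33, limma adjusted p = 1.9e-06). Foxa2, the endoderm and ventral midline factor, went from 188, 153 and 128 to 18.9, 40.3 and 38.6 (-2.28 ± 0.35, limma adjusted p = 1.7e-05). In each of these 3 genes every day 4 GFP-positive library was below every day 3 library. Foxr1 went from 47.5, 54.5 and 51.1 to 12.9, 11.0 and 16.2 (-1.87 ± 0.30, limma adjusted p = 2.9e-05), after 250, 252 and 167 on day 0. Foxe1, the thyroid and palate member, was low throughout, 17.1, 23.9 and 17.1 against 2.27, 1.83 and 2.58 (-2.65 ± 0.53, limma adjusted p = 0.00038). The call of Foxe1 was lost without any 1 of the 6 libraries compared (limma adjusted p up to 0.0029), with no filter or after quantile normalization, and that of Foxq1 where only the 2 groups were fitted (limma adjusted p = 0.00104).

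Some movements stayed under the size rule. Foxo1 was 1999, 2522 and 2568 on day 3 and 919, 1035 and 949 in day 4 GFP-positive cells, a log2 difference of -1.28 ± 0.18 (limma adjusted p = 5.7e-06). Foxn3 differed by -0.82 ± 0.16 (limma adjusted p = 0.00024). Foxl2, the ovarian and eyelid member, differed by 1.76 ± 0.39 and missed the p threshold (limma adjusted p = 0.0012), which it met without day 0 replicate 1 or 2, day 1 replicate 1, day 2 replicate 2 or day 3 replicate 2 (lowest limma adjusted p 0.00058), and also after quantile normalization, at equal library totals and in the fit without the trend. Of 12 FoxO targets (Cdkn1b, Bcl2l11, Ccng2, Irs2, Sesn1, Sesn3, Gadd45a, Pik3ip1, Klf6, Txnip, Insr and Cited2), 0 were higher and 1, Klf6, lower (-1.54 ± 0.11, limma adjusted p = 6.8e-10), a share near that of all genes called lower (7.36%).

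**Figure D3:**
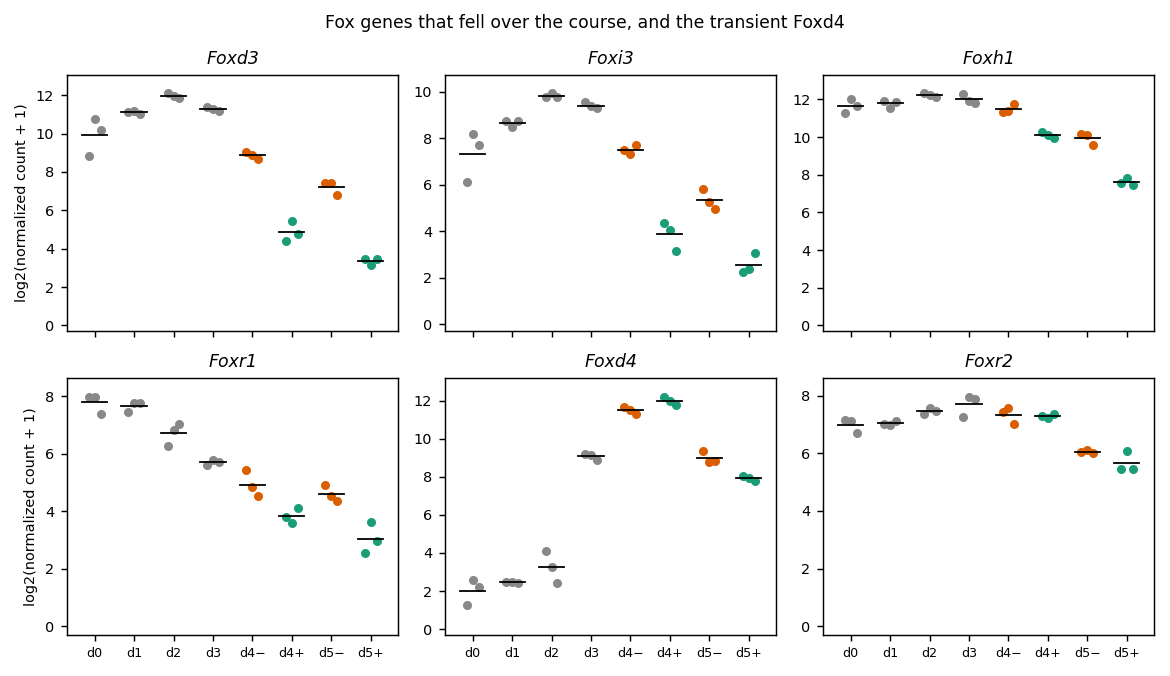
Points are log2(normalized count + 1) of Foxd3, Foxi3, Foxh1, Foxr1, Foxd4 and Foxr2 in each of 3 libraries per group (grey, all live cells; orange, GFP-negative; green, GFP-positive) and black lines are group means. Foxd3 and Foxi3 stand highest on day 2 and lowest in day 5 GFP-positive cells, and Foxd4 is high on day 4 in both gates.

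The GFP-negative cells of day 4 were set against the same day 3 libraries, and 7 of 38 members were higher and 1 lower, 21.1% in all, beside 2.88% of all genes (2% higher and 0.871% lower). Both comparisons share their day 3 samples, so their values stand side by side and were not tested for overlap. Foxb1, known from the hypothalamus and spinal cord, rose from 58.6, 47.8 and 38.9 to 1020, 1144 and 1266, by 4.55 ± 0.50 (limma adjusted p = 1.2e-06). Its rise against day 3 in GFP-positive cells was 1.84 ± 0.50 and missed the rule (limma adjusted p = 0.0054), which it met with 5 added (1.76, limma adjusted p = 0.00025) and where only the 2 groups were fitted (0.00029).

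Of the mesoderm and vessel members, Foxc1, Foxc2 and Foxf1 rose in GFP-negative cells, whereas Foxf2 overlapped between the groups (0.52 ± 0.52, limma adjusted p = 0.58). Foxc2 went from 12.2, 9.10 and 1.90 to 88.7, 183 and 174 (4.29 ± 0.66, limma adjusted p = 7.7e-05) and Foxc1 from 18.3, 26.3 and 20.01 to 229, 377 and 278 (3.70 ± 0.48, limma adjusted p = 1.1e-05). Foxf1 went from 9.76, 11.4 and 15.2 to 78.6, 304 and 554 (4.20 ± 0.67, limma adjusted p = 0.00011), with the widest spread of the group, and its call was lost without day 4 GFP-negative replicate 2 or 3 (limma adjusted p up to 0.0015). Foxc2 and Foxf1 lie inside the entry Galnt2l on the same strand, whose group means were 811 to 2022 and highest in day 5 GFP-positive cells, where Foxc2 and Foxf1 were low.

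Foxa1, the partner of Foxa2, rose from 11.0, 27.3 and 28.4 to 105, 146 and 133 (2.57 ± 0.39, limma adjusted p = 6.9e-05). Foxd1 rose in this gate as well, to 86.1, 81.5 and 120 (3.46 ± 0.40, limma adjusted p = 2.2e-06), as did Foxd4, to 3267, 2967 and 2508 (2.42 ± 0.32, limma adjusted p = 1.3e-05). Foxd1 and Foxd4 thus rose from day 3 in both gates. Where only the 2 groups were fitted, the calls of Foxa1, Foxc2 and Foxf1 were lost (limma adjusted p = 0.0026, 0.0018 and 0.0028). Foxd3 fell to 524, 473 and 407 (-2.43 ± 0.32, limma adjusted p = 1.2e-05), a smaller change than in GFP-positive cells. Foxi3 (-1.89 ± 0.38, limma adjusted p = 0.0011) and Foxa2 (1.67 ± 0.35, limma adjusted p = 0.0015) missed the rule. Both met it without day 0 replicate 1 (lowest limma adjusted p 1.9e-05 for Foxi3 and 2.9e-05 for Foxa2). Foxi3 also met it without day 0 replicate 2 or day 4 GFP-positive replicate 3, and Foxa2 without day 0 replicate 3 or day 4 GFP-positive replicate 1. With 5 added or only the 2 groups fitted, both were called, as were Foxi3 with a filter of 50 and Foxa2 at equal library totals. Foxi2 was 2.44, 3.41 and 2.85 on day 3 and 22.9, 14.6 and 17.6 in GFP-negative cells, without overlap and without a call (2.30 ± 0.47, limma adjusted p = 0.0013). It was called without day 0 replicate 1, with 5 added, after quantile normalization and in the fit without the trend (lowest limma adjusted p of these 7.2e-05).

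The question of the gate comparison on day 4 was which Fox genes differed between cells of high or moderate GFP and cells of low or no GFP. Of the 38 members, 8 were lower in GFP-positive cells, 21.1%, beside 3.96% of all genes (0.328% higher and 3.63% lower). The median over the 38 was -0.36, beside 0.01 over all tested genes.

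The 8 lower members were Foxc1 (-4.10 ± 0.48), Foxq1 (-4.00 ± 0.33), Foxd3 (-3.98 ± 0.32), Foxa2 (-3.95 ± 0.35), Foxi3 (-3.65 ± 0.38), Foxf1 (-3.47 ± 0.67), Foxb1 (-2.71 ± 0.50) and Foxj1 (-2.21 ± 0.33). Foxc1 was 7.95, 22.9 and 21.5 in GFP-positive and 229, 377 and 278 in GFP-negative cells (limma adjusted p = 2.2e-06). Foxa2 was 18.9, 40.3 and 38.6 against 510, 509 and 463 (limma adjusted p = 4.1e-08). Foxq1 was 10.2, 16.5 and 20.6 against 177, 275 and 350 (limma adjusted p = 1.9e-08), so no library of either gate overlapped in these 3 genes.

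Foxi3 was 19.4, 15.6 and 7.97 against 180, 158 and 209 (limma adjusted p = 4.4e-07), and Foxj1 25.0, 32.1 and 19.8 against 101, 123 and 140 (limma adjusted p = 4.3e-05). Foxb1 was 176, 142 and 209 against 1020, 1144 and 1266 (limma adjusted p = 0.00042), and its call was lost without any 1 of the 6 libraries (limma adjusted p up to 0.0033). Foxf1 was 7.96, 31.1 and 33.5 against 78.6, 304 and 554 (limma adjusted p = 0.00076), and its call was lost without any of the 6 libraries but day 4 GFP-negative replicate 1 (limma adjusted p up to 0.0089). It was also lost without any library of day 2, day 3 or day 5 GFP-positive cells, day 1 replicate 2 or day 5 GFP-negative replicate 1. The Foxf1 call ended too with the replicate block (limma adjusted p = 0.0011), with only the 2 groups fitted (0.016), with 0.5 added, with no filter, without the trend and after quantile normalization. Foxb1 overlaps the entry B230323A14Rik on the opposite strand (group means up to 178), and the strand setting of the counting is not given in the sources used here.

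Foxh1 met the p threshold but not the fold rule, at 1249, 1113 and 994 against 2537, 2664 and 3459 (-1.36 ± 0.19, limma adjusted p = 1.9e-05). Foxd1 and Foxd4 were not called between the gates: Foxd1 differed by 1.04 ± 0.40 (limma adjusted p = 0.087) and was 177, 194 and 217 against 86.1, 81.5 and 120. Foxf2, neighbour of Foxq1, was listed at 0 in 2 GFP-positive libraries and at 1.72 in the other, against 3.66, 8.11 and 9.40 (-2.45 ± 0.52, limma adjusted p = 0.0019). Without day 4 GFP-positive replicate 3, Foxf2 met the rule (limma adjusted p = 0.00076).

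On day 5 the gates differed in more members, of which 12 of 38 were lower in GFP-positive cells (31.6%), beside 5.01% of all genes (0.4% higher and 4.61% lower). The median over the 38 was -0.44, beside 0 over all tested genes. Of the 8 members called on day 4, 7 were called on day 5 in the same direction (87.5% of the day 4 and 58.3% of the day 5 calls): Foxa2, Foxb1, Foxc1, Foxd3, Foxi3, Foxj1 and Foxq1. Foxa1, Foxc2, Foxf2, Foxh1 and Foxr1 were called on day 5 alone and Foxf1 on day 4 alone. With 5 added in place of 1, Foxc2 was also called on day 4 (-2.72, limma adjusted p = 5.0e-05) and Foxf1 on day 5 (-2.78, limma adjusted p = 0.00093).

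Foxa2 was 50.8, 40.6 and 50.4 in GFP-positive cells against 1090, 607 and 861 in GFP-negative cells (-4.11 ± 0.35, limma adjusted p = 1.8e-08). Foxa1 was 27.2, 33.2 and 28.0 against 353, 250 and 319 (-3.33 ± 0.39, limma adjusted p = 1.8e-06). In both genes the lowest GFP-negative library was several times the highest GFP-positive one. Foxa3, the remaining FoxA gene, was 20.04, 24.7 and 25.3 against 76.0, 47.2 and 50.9, without overlap but not called (-1.25 ± 0.28, limma adjusted p = 0.0030).

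Of the mesoderm and vessel members, Foxc2 was 18.2, 4.91 and 12.7 against 264, 151 and 224 (-4.17 ± 0.66, limma adjusted p = 7.6e-05) and Foxc1 15.4, 31.2 and 17.2 against 179, 337 and 208 (-3.45 ± 0.48, limma adjusted p = 1.7e-05). Foxf2 was 1.82, 0.985 and 0 against 35.6, 31.3 and 18.1 (-3.99 ± 0.52, limma adjusted p = 7.2e-06), a size that depends on the added 1. Foxf1 was 28.2, 44.3 and 37.99 against 365, 440 and 134 and missed the rule (-2.91 ± 0.67, limma adjusted p = 0.0036). No GFP-positive library of these 4 genes reached the lowest GFP-negative one.

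Foxq1 was 22.7, 25.4 and 27.1 against 468, 298 and 414 (-3.90 ± 0.33, limma adjusted p = 2.1e-08). Foxd3 was 10.0, 7.88 and 9.95 against 168, 171 and 109 (-3.85 ± 0.32, limma adjusted p = 1.5e-08), and Foxi3 3.78, 4.14 and 7.46 against 54.6, 37.6 and 30.5 (-2.78 ± 0.38, limma adjusted p = 1.3e-05). Foxh1 was 190, 229 and 177 against 1136, 1108 and 776 (-2.32 ± 0.19, limma adjusted p = 1.2e-08). These 3 early genes were thus lower in both gates than on day 3, and lowest in GFP-positive cells.

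For the other 3 calls the libraries of the gates did not overlap, but each call was lost when certain single libraries were left out. Foxb1 was 225, 269 and 189 against 1968, 1388 and 1535 (-2.83 ± 0.50, limma adjusted p = 0.00023) and was lost without replicate 1 or 3 of either gate (up to 0.0021). Foxj1 was 31.8, 32.4 and 34.4 against 163, 104 and 132 (-1.96 ± 0.33, limma adjusted p = 0.00016) and was lost without GFP-negative replicate 1 or 3 or GFP-positive replicate 1 (up to 0.0018). Foxr1 was 4.81, 11.2 and 6.82 against 29.3, 21.9 and 19.2 (-1.56 ± 0.30, limma adjusted p = 0.00056) and was lost without any library but GFP-positive replicate 2 (up to 0.0062). The call of Foxr1 also ended with the replicate number as a block (limma adjusted p = 0.0011), with only the 2 groups fitted (0.020), with no filter, with 5 added or after quantile normalization, and that of Foxj1 after quantile normalization. Foxd2, at 21.8, 14.8 and 9.95 against 164, 66.6 and 117, was not called (-2.79 ± 0.64, limma adjusted p = 0.0032) but met the rule with the replicate block (0.00091), with only the 2 groups fitted or with 5 added.

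**Figure D4:**
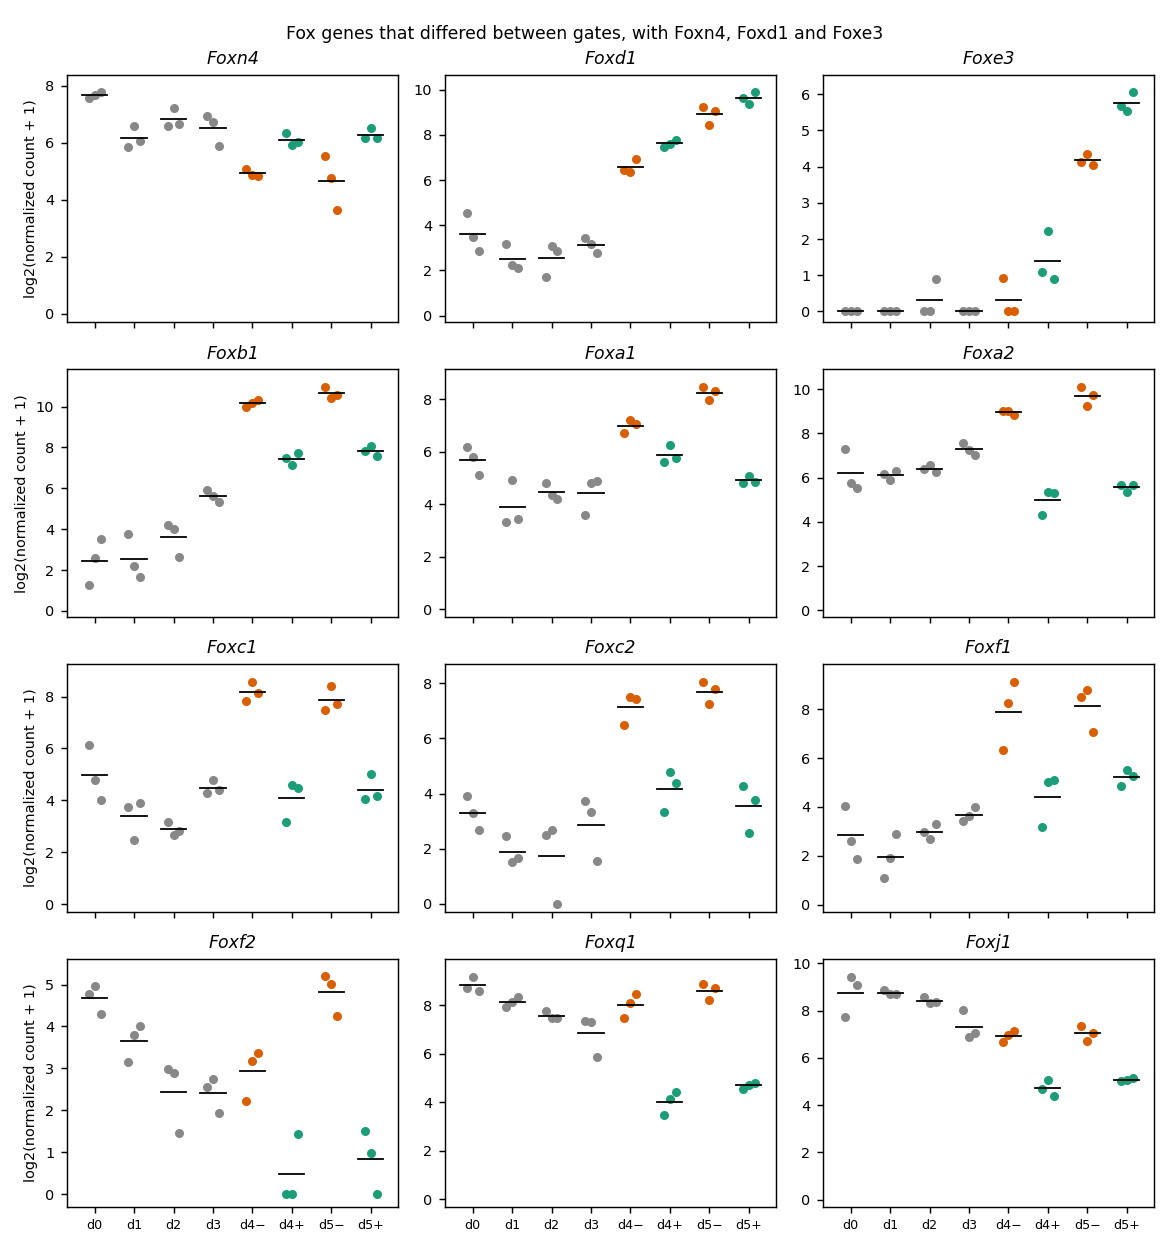
Points are log2(normalized count + 1) in each of 3 libraries per group (grey, all live cells; orange, GFP-negative; green, GFP-positive) for 12 Fox genes, and black lines are group means. Foxd1 and Foxe3 are highest in day 5 GFP-positive cells, whereas Foxb1, Foxa2, Foxc1, Foxc2, Foxf1, Foxq1 and Foxj1 are higher in GFP-negative cells on both days.

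Genes listed as partners or targets of these members were counted by the same rule. Of 9 FoxA and axial endoderm partners (T, Shh, Sox17, Gata4, Gata6, Hnf4a, Cer1, Noto and Chrd), 6 were lower in GFP-positive cells on day 4 and 8 on day 5, with medians of -3.78 and -3.88. Sox17, an endoderm factor, averaged 844 ± 260 (SD, n = 3) in the GFP-negative gate of day 5 and 37.0 ± 8.36 in the GFP-positive one. Of 10 FoxC and FoxF partners (Kdr, Pecam1, Cdh5, Etv2, Tal1, Tbx1, Meox1, Tcf15, Pdgfra and Twist1), 5 and 6 were lower and none higher, with medians of -1.83 and -2.31. Cdh5, an adhesion protein of vessels, differed by -4.38 ± 0.48 on day 5 (limma adjusted p = 7.2e-07). Of the 11 Nodal and FoxH1 genes, 7 were lower on each day, with medians of -2.95 and -2.59.

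Of the 12 forebrain genes, 3 were higher and 1 lower on day 4 and 4 higher and 1 lower on day 5. The higher ones included Lhx2 (2.64 ± 0.30 and 2.96 ± 0.30), an eye field factor, and the lower one on both days was Fgf8 (-3.63 ± 0.30 and -2.86 ± 0.30), the growth factor of the anterior neural border. Of 6 Groucho co-repressors tested, partners of several Fox proteins, none was called by limma on day 4 (5 at an unadjusted p under 0.05), and on day 5 Tle2 (-3.03 ± 0.45) and Tle6 (-1.78 ± 0.25) were lower. These lists were chosen with earlier results of the same libraries known, so their direction is no independent evidence.

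Summed markers of other cells differed between the gates, most of them lower in GFP-positive cells. The 5 primitive streak and mesoderm markers (T, Eomes, Mixl1, Mesp1 and Tbx6) summed to 296 to 651 in day 4 GFP-positive and 5633 to 8717 in GFP-negative libraries, and to 144 to 238 against 2129 to 2460 on day 5. The 4 endoderm markers (Sox17, Gata4, Gata6 and Cer1) summed to 82.6 to 252 against 1927 to 3160 on day 4 and to 126 to 276 against 2735 to 3191 on day 5. For 5 endothelial markers the day 5 sums were 726 to 893 against 1402 to 2079, and for 4 neural crest markers 317 to 390 against 1470 to 1968. For 5 surface ectoderm markers the day 5 sums were 3070 to 3296 against 7710 to 11910, whereas those of 5 early response genes overlapped (3806 to 9267 against 4826 to 8622). On day 4 the early response sums did not overlap (3772 to 3958 against 4103 to 4557). Endothelial sums were higher on day 1 (3154 to 3516) and surface ectoderm sums on day 3 (19158 to 21651) than in either day 5 gate. These 2 sums therefore do not stand for such cells alone. Between the day 5 gates, the calls in these 2 lists were Cdh5 and Tek (endothelial) and Epcam (surface ectoderm), all lower. Pluripotency markers summed to 1296 to 2598 against 14257 to 16853 on day 4 and to 513 to 687 against 6697 to 8040 on day 5, beside the lower Foxd3 and Foxi3. The 3 neuronal markers summed higher in GFP-positive cells, 3378 to 3963 against 1856 to 2122 on day 4 and 1605 to 1782 against 1360 to 1524 on day 5. Gene by gene the neuronal markers did not share that direction. On day 4 limma called none of the 3 (median log2 difference 0.19), and on day 5 it called Neurog2 lower and none higher (median -0.57). The part of these cells in the Fox differences was not tested.

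Whether the gate difference itself changed from day 4 to day 5 was tested as an interaction. limma called none of the 38 members (0.109% of all genes, 0.0762% higher and 0.0333% lower), and 8 had an unadjusted p under 0.05. The lowest p-values were those of Foxa1, whose difference went from -1.12 ± 0.39 to -3.33 ± 0.39 (change -2.21 ± 0.56, limma adjusted p = 0.059), Foxh1 (change -0.96 ± 0.27, limma adjusted p = 0.094) and Foxd4 (change -1.56 ± 0.45, limma adjusted p = 0.12). The change of Foxd2 was larger in size and less certain (-2.38 ± 0.90, limma adjusted p = 0.32). The members called on day 5 alone are therefore not shown to differ between the days.

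**Figure D5:**
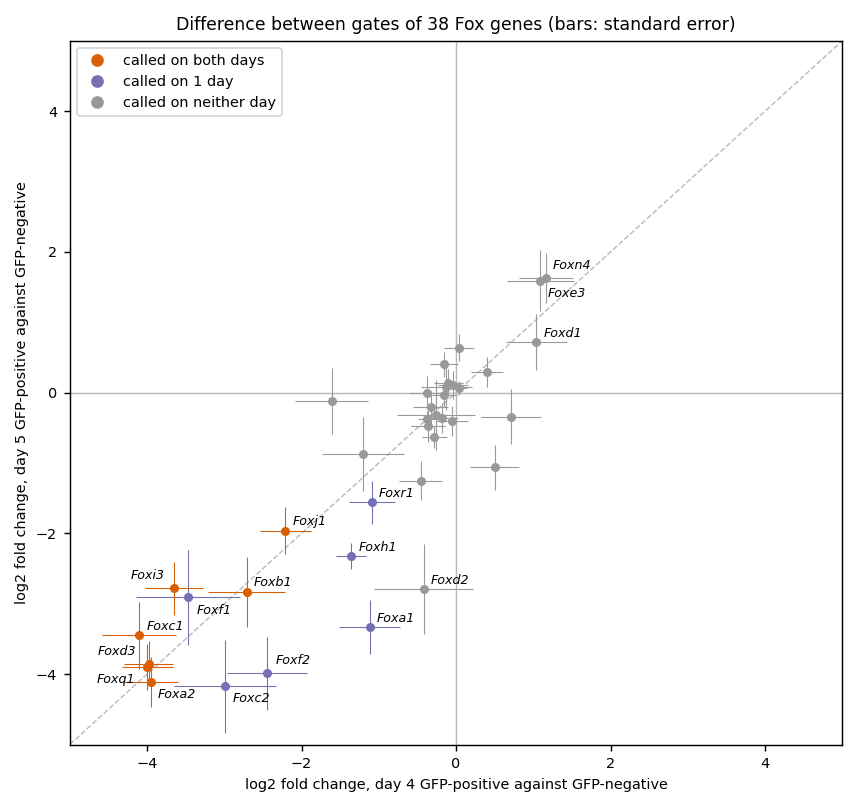
Each point is 1 of the 38 tested Fox genes, with its log2 fold change between gates (GFP-positive against GFP-negative) on day 4 along the horizontal axis and on day 5 along the vertical, bars for the SE and a dashed line of equality. Foxc1, Foxq1, Foxd3 and Foxa2 lie at the lower left, between -3.45 and -4.11 on both axes, and Foxa1 and Foxd2 lie below the line.

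Within the gates, the step from day 4 to day 5 brought further changes. In GFP-positive cells 1 of 38 members was higher and 3 were lower (10.5%), beside 1.49% of all genes (0.595% higher and 0.89% lower). In GFP-negative cells 4 were higher and 3 lower (18.4%), beside 1.27% (0.762% higher and 0.509% lower). The count in GFP-negative cells was the least steady, and the scaling moved its split: 4 higher and 1 lower at equal library totals, which shifted the median of all genes to 0.11, and 2 and 3 after quantile normalization. It was 3 without replicate 3 of either GFP-negative group and 4 without any 1 of their other 4 libraries. Over all left-out libraries it ran from 3 to 8. With the replicate block 5 were called, and where only these 2 groups were fitted 1 was called, Foxd4.

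Foxe3, the lens gene, was listed at 0 in every library of days 0, 1 and 3 and stood at 1.14, 3.64 and 0.857 in day 4 GFP-positive cells. By day 5 it was 50.5, 45.9 and 65.8 in GFP-positive cells (4.36 ± 0.43, limma adjusted p = 6.2e-07). In GFP-negative cells it went from 0.904, 0 and 0 to 16.4, 19.6 and 15.4 (3.86 ± 0.43, limma adjusted p = 3.6e-06), a size that depends on the added 1. Between the day 5 gates it differed by 1.59 ± 0.43 and was not called (limma adjusted p = 0.012), although it was called higher in GFP-positive cells in the fit without the trend (limma adjusted p = 0.00081). Foxd2, its neighbour, rose in GFP-negative cells from 8.23, 4.06 and 1.17 to 164, 66.6 and 117 (4.55 ± 0.64, limma adjusted p = 5.7e-05) and was 21.8, 14.8 and 9.95 in GFP-positive cells (2.18 ± 0.64 against day 4, limma adjusted p = 0.032).

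Foxd1 reached 798, 660 and 942 in GFP-positive cells (2.01 ± 0.40, limma adjusted p = 0.0016) and 599, 350 and 524 in GFP-negative cells (2.33 ± 0.40, limma adjusted p = 0.00045). The second of these was called, but not without any 1 of the 6 libraries (up to 0.0043), and the first met the rule without day 0 replicate 1 or 3 or day 2 replicate 1 (lowest limma adjusted p 0.00026), with 5 added (9.3e-05) and with only the 2 groups fitted (5.6e-05). Foxl2 rose in GFP-negative cells from 15.6, 19.5 and 11.7 to 67.3, 65.1 and 83.1 (2.15 ± 0.39, limma adjusted p = 0.00087), a call lost without any 1 of those 6 libraries, without any GFP-positive library and without replicate 3 of day 0, 1, 2 or 3 (up to 0.0075). It was lost with the replicate block as well (limma adjusted p = 0.0014), with 0.5 added, with no filter and after quantile normalization. Foxl2os, on the opposite strand of Foxl2, had group means up to 84.9, in day 5 GFP-negative cells. In GFP-positive cells Foxl2 averaged 26.0 on day 4 and 57.6 on day 5. Its libraries overlapped between the day 5 gates (44.1 to 76.3 against 65.1 to 83.1).

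The transient gene Foxd4 fell in both gates, to 266, 246 and 219 in GFP-positive cells (-4.07 ± 0.32, limma adjusted p = 3.0e-08) and to 661, 437 and 452 in GFP-negative cells (-2.51 ± 0.32, limma adjusted p = 1.9e-05). Its day 5 libraries nevertheless stayed above every day 2 library. Foxh1 fell by -2.49 ± 0.19 in GFP-positive (limma adjusted p = 1.9e-08) and -1.53 ± 0.19 in GFP-negative cells (limma adjusted p = 1.4e-05), the second under the fold rule without replicate 3 of either GFP-negative group and at equal library totals (-1.42). Foxr2 fell in GFP-positive cells from 157, 149 and 163 to 42.5, 67.3 and 43.2 (-1.63 ± 0.21, limma adjusted p = 1.6e-05). In GFP-negative cells it was 66.0, 67.8 and 63.9 on day 5, after 174, 189 and 129 (-1.29 ± 0.21, limma adjusted p = 0.00027). Foxi3 fell in GFP-negative cells by -2.16 ± 0.38 (limma adjusted p = 0.00062), a call lost without any 1 of the 6 libraries compared and without day 2 replicate 1, 2 or 3 or day 3 replicate 2 (up to 0.0063). The replicate block ended it as well (limma adjusted p = 0.0014), as did quantile normalization, equal library totals and a fit without the trend. Foxd3 differed by -1.66 ± 0.32 in the same cells and missed the rule (limma adjusted p = 0.0014), which it met after quantile normalization and without day 0 replicate 1 or 2 (lowest limma adjusted p 1.1e-05).

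The 18 tested members that were called nowhere included most of the high and steady ones. Foxj2 (span of group means 0.45 on the log2 scale), Foxk1 (0.52), Foxo3 (0.58), Foxj3 (0.62), Foxp1 (0.74), Foxo6 (0.85), Foxp4 (0.90), Foxp3 (0.95) and Foxo4 (0.96) each varied by less than 1 on that scale. Foxm1, the mitotic regulator, was highest in day 5 GFP-positive cells (8634, 8216 and 7406). On day 0 it was 1991 in replicate 1, the library that stood apart, and 5141 and 4613 in the others, which lay within or above the day 1 range (4349 to 4802). GFP-positive and GFP-negative cells differed in Foxm1 by 0.40 ± 0.21 on day 4 and by 0.29 ± 0.21 on day 5 (limma adjusted p = 0.24 and 0.42). Of its 12 listed targets (Plk1, Aurkb, Cenpf, Ccnb1, Ccnb2, Cdc25b, Cenpa, Kif20a, Nek2, Birc5, Cdc20 and Bub1), limma called 0 in any of the 10 comparisons, with between 1 and 6 of the 12 at an unadjusted p under 0.05 and medians from -0.15 to 0.18.

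Foxn4, the early retinal member, was highest on day 0 (188, 206 and 218). It was higher in GFP-positive cells on both days, at 80.6, 60.1 and 64.0 against 33.1, 28.6 and 27.9 on day 4 and 70.6, 90.5 and 71.3 against 45.9, 26.2 and 11.6 on day 5, without a call (1.16 ± 0.35 and 1.63 ± 0.35, limma adjusted p = 0.026 and 0.0019). On day 5 it met the rule without GFP-negative replicate 1 (limma adjusted p = 0.00014) and after quantile normalization (1.96, limma adjusted p = 0.00031). Foxp3, the regulator of regulatory T cells, stayed between 3.16 and 29.9 in all libraries and overlaps Ccdc22 on the opposite strand, whose group means were 1010 to 1462. The 5 members below the filter were Foxb2, Foxi1, Foxl1, Foxn1 and Foxs1, with no library above 8.26 (Foxn1, day 1), and Foxi1 was above 0 only in a day 2 library (0.881) and a day 4 GFP-negative library (0.814).

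As a description of likeness, the 16051 genes with a highest group mean of at least 50 were ranked by the Pearson correlation of their 8 group means (on the log2 scale) with those of 4 of the 38 Fox genes, the 2 with the largest positive and the 2 with the largest negative difference between the day 5 gates. Foxe3 was followed most closely by Cntn6 (r = 0.994), a neural adhesion protein, Khdrbs2 (0.990) and Zfp385a (0.984). Foxc2 was followed by Kif26b (0.986), Hand2 (0.981), a factor of heart and limb mesoderm, and Msx2 (0.979), and Foxa2 by Pkd1l1 (0.985), Prss12 (0.980) and Cfc1 (0.975), a Nodal co-receptor. Foxn4 was followed by Ssna1 (0.953), Get4 (0.949) and Rnf7 (0.948), each with a span of at most 0.61 on the log2 scale, beside 3.02 for Foxn4. With 8 points that share depth and libraries, no p is given.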

How the data were processed

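The RNA of 24 libraries was measured by polyA RNA-seq (TruSeq libraries). The deposited values are a normalized signal per gene: the authors pseudo-aligned reads with kallisto (0.43.1 in the submitters' processing notes) to mm10 transcripts of Ensembl, coding and noncoding, and normalized the abundance estimates with DESeq2 size factors. Whether a length offset per gene entered is not given in the sources used here. The table also holds the authors' own gene classes, which were not used. Whether counting used strand, and how reads common to similar genes were treated, is not given in the sources used here.

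Groups were taken from the sample titles. All 24 libraries were fitted together as log2(value + 1), without a block, with limma 3.58.1 in R 4.3.3 (eBayes with trend) for 21005 genes that reached 10 in 3 or more libraries. Benjamini-Hochberg adjustment was made within each of 10 contrasts, over all genes, with thresholds of 0.001 and 1.5. The median residual SD was 0.308. Whole reads could not be recovered (with 1 worth of a read assumed per library, 35.8% to 76.2% of low values were within 0.1 of a multiple of it), so no count model was run and the read depth is unknown. The procedure was tested on simulated data.

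Of the 44 members, 1 is not reported here, nor are some genes of the lists. The members and gene lists were chosen with earlier results of these data known. Members called in a gate contrast, in day 4 GFP-positive against day 3 or in the interaction are given per library, other called members with values, and of each gene list at most the 3 largest called changes. Other uncalled members are named where a value helps, chosen after their values were seen. Gene positions were the same in GENCODE M21 for all 43 members. Promoters came from a RefSeq table of GRCm38.p6. Alternatives were an added 0.5 or 5 in place of 1, a filter at 50 or none, quantile normalization, equal library totals, no trend, only the groups compared, a replicate block, thresholds of 0.05 and 1, and leaving out each library. Python 3.11.15, numpy 2.4.6, pandas 2.3.3 and matplotlib 3.10.9 were used.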

Additional observations from a re-analysis of the deposited data

How the results depend on the processing

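Over all comparisons 50 pairs of a Fox gene and a comparison were called. Between 43 and 57 were called under the alternatives other than the looser thresholds, of which 38 (only the groups compared) to 50 were among the 50. With thresholds of 0.05 and 1 there were 96 pairs, and the counts, each beside the percent of all genes, were 7 (4.5%, day 1 against day 0), 1 (8.13%, day 2 against day 1), 6 (6.05%, day 3 against day 2), 16 (22%) and 14 (9.59%) for day 4 GFP-positive and GFP-negative cells against day 3, 14 (9.64%) and 18 (10.6%) for the gates on days 4 and 5, 8 (5.47%) and 12 (4.96%) for day 5 against day 4 in GFP-positive and GFP-negative cells, and 0 (0.905%) for the change of the gate difference. Day 5 against day 4 in GFP-negative cells kept 1 call where only its own groups were fitted, which leaves fewer libraries for the estimate of the spread. Among single values, Foxk2 between the day 5 gates, uncalled at 0.07, was -0.03 after quantile normalization and -0.03 at equal library totals.

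Leaving out 1 library at a time gave 0 to 1 calls for day 1 against day 0, 0 for day 2 against day 1 and 1 for day 3 against day 2. It gave 9 to 11 for day 4 GFP-positive and 7 to 11 for day 4 GFP-negative against day 3, 6 to 8 and 9 to 12 for the gates on days 4 and 5, 4 to 6 and 3 to 8 for day 5 against day 4 in GFP-positive and GFP-negative cells, and 0 for the change of the gate difference.

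The residuals of libraries that carry the same replicate number had correlations between groups averaging -0.001 (from -0.284 to 0.401). In 0 of the 9 pairs of groups compared directly were all 3 above 0.1, so the numbers were not taken to pair the samples. The labels do not say whether gates of the same number came from 1 sort. Day 3 and day 5 GFP-negative cells, not compared with each other, had 0.401, 0.165 and 0.133. With the replicate block 47 pairs were called, 46 of them among the 50 (the calls of Foxf1 between the day 4 gates, Foxr1 between the day 5 gates, and Foxl2 and Foxi3 from day 4 to day 5 in GFP-negative cells ended, and that of Foxd2 between the day 5 gates was gained), and the counts were 0, 0, 1, 10, 8, 7, 12, 4, 5 and 0 in the order of the comparisons above.

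Equal library totals moved the median of all genes to 0.11 for day 5 against day 4 GFP-negative cells and to -0.11 for the change of the gate difference. Precision is lowest for members whose values are near 0 in their lower groups, such as Foxe3, Foxf2 and Foxe1.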
